A study of Sus scrofa with 11 samples.

Results

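The AP-1 and EGR genes described here are 10 immediate early transcription factors, FOS, FOSB, FOSL1, FOSL2, JUN, JUNB, JUND, EGR1, EGR3 and ATF3. They were taken from the 30376 genes of the expression values by symbol, and all 10 were found and passed the filter on low values that left 13956 genes for testing. Bulk polyA RNA was sequenced from full-thickness skin wounds of Yucatan minipigs, a small pig breed whose skin resembles human skin, made with a 2 cm punch and sampled on day 10. The diabetic group held 7 wounds of a female minipig that had received streptozotocin, a toxin of the insulin-producing beta cells, at 6 months of age, was kept on insulin, and was wounded after 60 days, with insulin stopped a week earlier. The non-diabetic group held 4 wounds of a female minipig wounded in the same way, whose age was not given in the sources used here. Each group is a single animal, so diabetes and the individual minipig cannot be told apart, and every p-value measures the spread between wounds only. In bulk tissue, fewer cells of a type and less RNA per cell cannot be told apart either.

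AP-1 is a pair of basic leucine zipper proteins, one of the FOS or ATF families and one of the JUN family, or JUN proteins alone, that binds short DNA sites and switches on genes for growth, matrix breakdown and inflammation. EGR proteins bind GC-rich sites through zinc fingers. Most of these genes are transcribed within minutes of a growth factor, cytokine, mechanical stretch or tissue injury reaching a cell, through kinases that act on factors already bound at their promoters, and their RNA decays quickly. In skin wounds they are known for their early appearance at the wound edge and for their part in keratinocyte and fibroblast activation.

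The CArG box, the binding sequence of serum response factor, was found on either strand within the 1000 genome bases before the first annotated coding base in 5 of the 10 genes, against 5.09% of the 20781 windows of all genes. EGR1 held 5 of these boxes, and EGR3, FOS, FOSB and FOSL1 held 1 each. They are shown because these 5 genes have them in common. Each is printed on the strand of its gene with 10 bases on either side and the box in capitals. The genome is Sscrofa11.1 as annotated by RefSeq, and the strand is plus for all but EGR3.

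FOS chr7:98449042-98449071: cacaggatgtCCATATTAGGacatctgcgt
FOSB chr6:51837436-51837465: gcgccgagctCCTTATATGGctaattgcgt
FOSL1 chr2:6429493-6429522: aaaatatacaCCATTTTTGGagttctctgg
EGR3 chr14:6948941-6948970: ctttgtctgtCCATATATGGgcagctacgt
EGR1 chr2:140441320-140441349: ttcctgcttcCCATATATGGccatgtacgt
EGR1 chr2:140441298-140441327: gccggtcttgCCATATTAGGgcttcctgct
EGR1 chr2:140441030-140441059: ttgggcagcgCCTTATTTGGagcgccccga
EGR1 chr2:140441014-140441043: ccggaaccacCCTTATTTGGgcagcgcctt
EGR1 chr2:140440976-140441005: cccggaaacgCCATATAAGGagcaggaagg

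The box of FOS began 456 bases before its coding sequence, that of EGR3 579, that of FOSB 831 and that of FOSL1 904, while those of EGR1 lay between 387 and 731 bases before it. Sites for the proteins themselves were rarer. The cyclic AMP response element TGACGTCA, bound by CREB and ATF proteins, was found in JUND alone, against 2.49% of all windows. The AP-1 site TGACTCA was found in FOSL1 and FOSL2, against 12.8% of windows, and an EGR site written as GCGGGGGCG or GCGTGGGCG was found in EGR1 and JUN, against 9.65%. All 5 are printed with the site in capitals, since these are sites of the members' own families.

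JUND chr2:59530793-59530820: cccgcccccaTGACGTCAacccacaagg
FOSL1 chr2:6430343-6430369: gaggagcgagTGAGTCAgaaccagagc
FOSL2 chr3:110843642-110843668: gccattgtagTGACTCAtctcgggcag
EGR1 chr2:140440791-140440819: gactcgccttCGCCCCCGCcccgggcccg
JUN chr6:153686449-153686477: aggccagccgGCGGGGGCGcgcgctctta

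The sites of FOSL1 and EGR1 read as TGACTCA and GCGGGGGCG on the other strand, FOSL2 lies on the minus strand, and no match overlapped a match of another motif. JUNB and ATF3 had none of the 4 motifs. The first coding base lies 3798 bases from the annotated gene start in JUNB, 44154 in ATF3 and 1497 in FOSB, so their windows do not reach that start. The box of FOSB and all boxes of EGR1, whose coding sequence begins 888 bases from its start, therefore lie inside the annotated gene, whereas those of FOS, FOSL1 and EGR3 lie before it. These matches describe the letters of the genome, and binding was not measured in these wounds.

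Between 28314785 and 40168372 reads fell on genes in a diabetic wound and between 32961018 and 36872400 in a non-diabetic wound. Diabetic 4 and non-diabetic 1 stood apart from the other wounds on the main axis of variation, which held 44.5% of the variance. Their keratinocyte list averaged 1.37 and 2.82 on the log2 scale, against 5.25 to 6.81 in the other 9 wounds, and their neutrophil list 2.10 and 2.63 against 4.31 to 4.79. Diabetic 3 alone held skeletal muscle transcripts, with a mean log2 level of 6.02 against -0.97 to -0.66 elsewhere. Fold changes below are given with these wounds in, and without diabetic 4 and non-diabetic 1 where that mattered.

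Diabetic and non-diabetic wounds were first compared for each member, to see whether the immediate early response differed between the groups on day 10. None of the 10 genes was called by limma, a call requiring an adjusted p below 0.05 and a log2 fold change beyond 0.5 in either direction. Calls were made for 3.00% of all genes tested, with 1.35% above and 1.66% below the non-diabetic wounds. At an unadjusted p under 0.05 there were 3, FOSL2, JUN and FOSB, all lower in diabetic wounds, where 18.4% of all genes tested had such a p and 9.39% had it with lower values. Of the 3, JUN and FOSB also passed the fold change, as did 7.13% of all genes. The voom variant of limma on reads recovered from the values put none of the 10 past an adjusted p of 0.05. The log2 fold change was below 0 for 8 genes and above 0 for 2, with a median of -0.21 against 0.01 over all genes tested. Among all 13956 genes tested, 6654 were below 0. Wound groups that did not overlap were found for FOSL2 alone, where 5.65% of all genes tested had groups that did not overlap and 2.96% did so with the diabetic wounds lower.

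**Figure D1:**
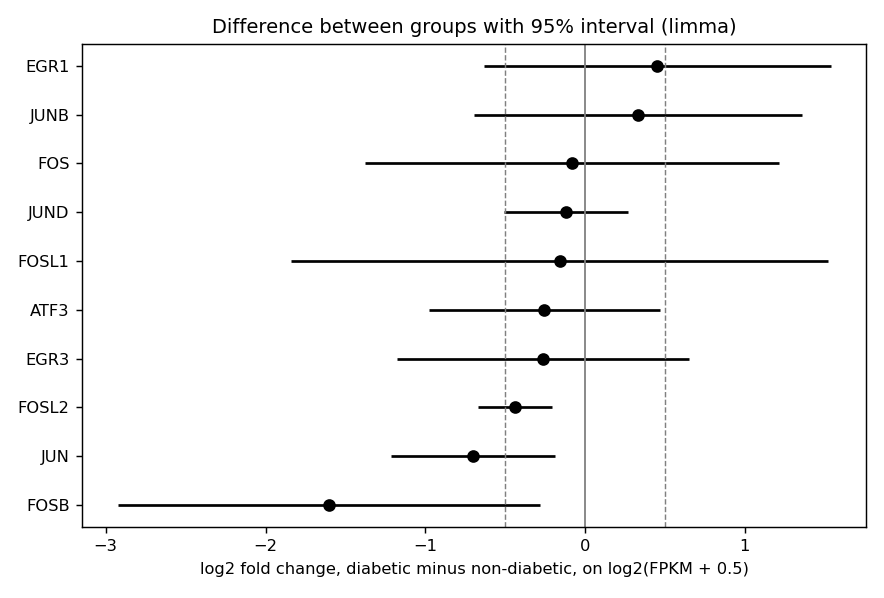
Difference between diabetic and non-diabetic wounds for each gene as a log2 fold change on log2(FPKM + 0.5), with points for the limma estimate, horizontal lines for its 95% interval, and dashed lines at the fold change needed for a call. The intervals of FOSL2, JUN and FOSB lie below 0, and those of FOS and FOSL1 reach from below -1 to above 1.

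FOSL2 (chr3:110820403-110842903, minus strand) encodes Fra-2, a FOS family protein with a role in dermal fibroblasts and in keratinocyte differentiation. Its level in diabetic wounds ran from 42.6 FPKM, the reads on the gene scaled by its length and a library size that was 0.854 to 1.18 times the reads on genes, over a median of 47.3 to 57.0. The non-diabetic wounds measured 59.9, 64.6, 76.4 and 66.0 FPKM. Every diabetic wound was therefore below every non-diabetic wound, although the gap between the highest diabetic and the lowest non-diabetic wound was narrow. On the log2 scale the fold change was -0.44 (SE 0.11), with a limma adjusted p of 0.0471, which 3.58% of all genes passed at any fold change. The two-sided exact permutation test over the 330 splits of the wounds into 7 and 4 gave p = 0.00606, where the smallest possible p is 0.00303. FOSL2 thus passed the adjusted p without reaching the fold change of 0.5 that a call required, and 9 of 25 alternative settings kept its adjusted p under 0.05. Without diabetic 4 and non-diabetic 1 the log2 fold change was -0.45, with a limma adjusted p of 0.0947. FOSL2 was also the steadiest member, with a spread around the group means larger than that of only 20.54% of genes. Macrophage markers differed in the opposite direction. All 10 of that list were higher in diabetic wounds, 3 of them called (ITGAM, an integrin of myeloid cells, with a log2 fold change of 1.22, the lipopolysaccharide receptor CD14 with 0.76 and the mannose receptor MRC1 with 0.73), and their summed level was 750.0 to 1710 FPKM in diabetic and 484 to 901 FPKM in non-diabetic wounds. Over all 13956 genes tested, 7302 were higher in diabetic wounds and 1.35% were called higher. The part of the macrophage difference in FOSL2 was not tested.

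FOSB (chr6:51836780-51844531, plus strand), a close relative of FOS, had the largest difference of the 10. Diabetic wounds held 1.36 to 7.99 FPKM with a median of 2.199. The non-diabetic wounds held 9.62, 17.7, 26.8 and 2.50 FPKM. Non-diabetic 1, 2 and 3 were above every diabetic wound, while non-diabetic 4 lay among the diabetic values. With a log2 fold change of -1.60 (SE 0.60), FOSB had an adjusted p of 0.179 by limma and an exact permutation p of 0.0394. The estimate ranged from -2.23 without non-diabetic 4 to -1.17 without non-diabetic 3, and its 95% interval of -2.92 to -0.29 is wide.

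FOS (chr7:98449508-98451971, plus strand), the founding member of the family and its fastest responder, was level between the groups and very uneven inside them. The diabetic wounds ran from 16.7 FPKM in diabetic 6 over a median of 39.0 to 138 FPKM in diabetic 1, an 8.26-fold range. The non-diabetic wounds measured 29.2, 55.0, 91.0 and 29.5 FPKM. Diabetic 1 and 5 and non-diabetic 3 were the highest 3 wounds, and the groups overlapped throughout. Its log2 fold change was -0.08 (SE 0.59, adjusted p = 0.960 by limma), and its 95% interval of -1.38 to 1.21 covers more than a doubling in either direction.

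FOSL1 (chr2:6430158-6436173, plus strand) encodes Fra-1, which is known for its place in migrating keratinocytes. It had the widest range of the 10 in both groups, 13.2-fold in diabetic and 13.4-fold in non-diabetic wounds. It ran from 2.17 to 28.7 FPKM with a median of 3.71 in diabetic wounds, and measured 1.73, 10.5, 23.3 and 3.53 FPKM in the non-diabetic ones. High values were again those of diabetic 1, diabetic 5 and non-diabetic 3, and the lowest wound of each group was the keratinocyte-poor one. For FOSL1 the log2 fold change was -0.16 (SE 0.77, adjusted p = 0.942 by limma), and it became -0.50 without diabetic 4 and non-diabetic 1.

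JUN (chr6:153686425-153687635, plus strand) encodes c-Jun, the main partner of FOS. Diabetic wounds measured 29.6 to 65.4 FPKM with a median of 57.2. The non-diabetic wounds measured 82.1, 105, 92.7 and 56.9 FPKM. As for FOSB, non-diabetic 1, 2 and 3 were above all 7 diabetic wounds and non-diabetic 4 was not. Its log2 fold change was -0.70 (SE 0.23), which passed the size needed for a call but not the adjusted p of limma (0.129), and the exact permutation p was 0.0333. Over the 25 alternatives its fold change stayed between -0.91 and -0.58, and its adjusted p never fell under 0.05.

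JUNB (chr2:66214086-66219435, minus strand), which can oppose c-Jun at some promoters and restrains keratinocyte cytokines, pointed the other way without passing any test. Diabetic wounds held 17.4 to 77.7 FPKM with a median of 24.6, and the non-diabetic wounds 12.8, 29.6, 46.7 and 26.1 FPKM. The values of diabetic 1 and 5, at 77.7 and 77.5 FPKM, exceeded the next diabetic wound more than the other 5 diabetic wounds differed among themselves. For JUNB the log2 fold change was 0.33 (SE 0.47, adjusted p = 0.768 by limma), and it was 0.09 without the keratinocyte-poor wounds.

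JUND (chr2:59530991-59532846, plus strand), the member that cells keep at a steady level, held 32.1 to 64.9 FPKM with a median of 43.6 in diabetic wounds. The non-diabetic wounds measured 46.2, 47.2, 63.0 and 40.7 FPKM, inside the diabetic range. Its log2 fold change was -0.12 (SE 0.18, adjusted p = 0.780 by limma), with a 95% interval of -0.51 to 0.27 that is the narrowest after FOSL2.

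EGR1 (chr2:140440829-140445302, plus strand), a zinc finger factor induced by growth factors and mechanical stress, ran from 9.67 to 67.2 FPKM with a median of 23.7 in diabetic wounds. The non-diabetic wounds held 11.2, 20.3, 24.6 and 12.9 FPKM. Diabetic 1, 3 and 5 were above every non-diabetic wound, while diabetic 2 and 6 were below every one of them. For EGR1 the log2 fold change was 0.45 (SE 0.50, adjusted p = 0.684 by limma), and it was 0.26 without the keratinocyte-poor wounds.

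EGR3 (chr14:6943184-6948507, minus strand), a relative of EGR1 that is itself induced by similar signals, was the scarcest member. Its diabetic wounds measured 0.71 to 2.75 FPKM with a median of 1.54, and its non-diabetic wounds 0.42, 4.15, 4.01 and 1.81 FPKM, from 52 to 604 reads. The groups overlapped, with non-diabetic 1 the lowest of all 11 wounds, non-diabetic 4 among the diabetic values, and non-diabetic 2 and 3 above every diabetic wound. The log2 fold change was -0.26 (SE 0.42, adjusted p = 0.796 by limma). It moved to -0.62 without the keratinocyte-poor wounds and to 0.02 without non-diabetic 2.

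ATF3 (chr9:130772259-130829678, minus strand), a stress-induced factor that pairs with JUN proteins and often represses inflammatory genes, held 3.51 to 13.1 FPKM with a median of 7.29 in diabetic wounds. The non-diabetic wounds measured 9.17, 8.52, 13.4 and 5.82 FPKM, within about the same range. The log2 fold change was -0.26 (SE 0.33, adjusted p = 0.738 by limma).

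Wounds of the same animal differed more than the groups did for most members, since the gap between the group means was smaller than the standard deviation between wounds in 7 of the 10. The share of all genes with such a gap is not given here, so this is not shown to be particular to the members. Over all genes tested, the quartiles of the log2 fold change were -0.16 and 0.18, and the median standard deviation between wounds was 0.25. On the log2 scale, 7 genes had a spread around the group means above that of 90% of genes tested, and 5 were above 95%, with FOSL1 highest at the 98.1 percentile. JUN at 80.2, JUND at 64.5 and FOSL2 at 20.54 were the exceptions. The highest values often fell in the same wounds, and how much of the spread rests on them was not tested. Diabetic 1 was the highest of the 7 diabetic wounds for 6 genes and diabetic 5 for the other 4, and each was among the top 2 for 8 genes. Non-diabetic 3 was the highest of its 4 wounds for 8 genes and among the top 2 for all 10. Non-diabetic 2 was among the top 2 for 8 genes, while non-diabetic 1 was the lowest for 6 and non-diabetic 4 for 4.

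**Figure D2:**
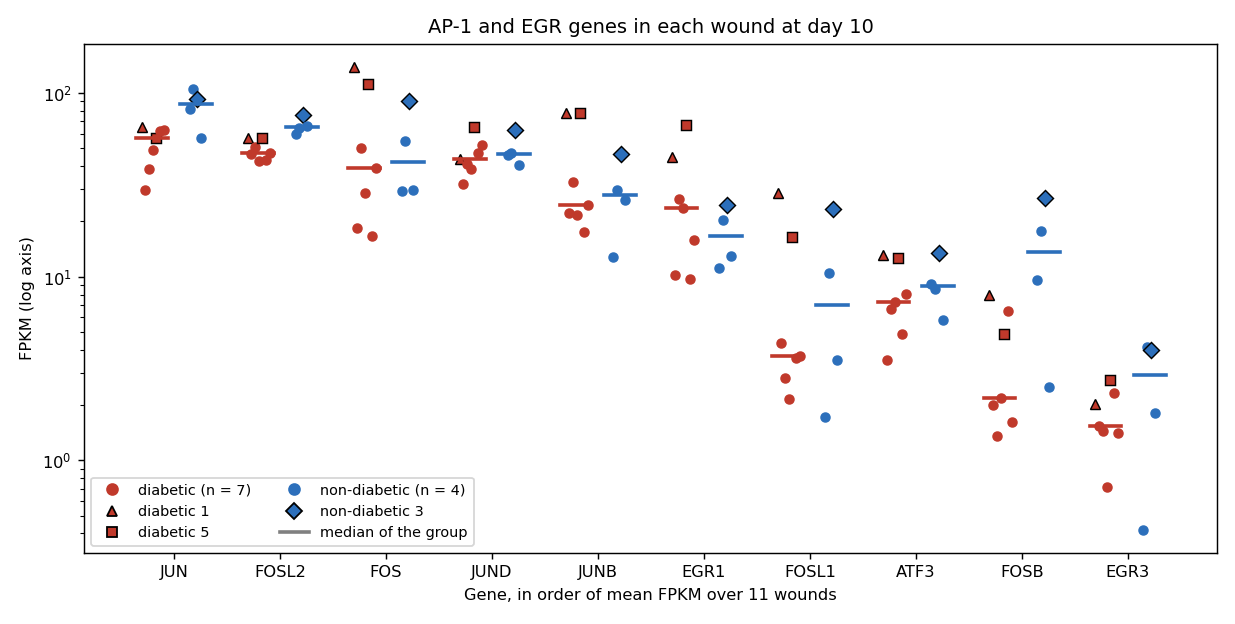
FPKM of each gene in each wound on a log axis, genes in order of their mean level, with red for the 7 diabetic and blue for the 4 non-diabetic wounds, a bar for each group median, and outlined symbols for diabetic 1, diabetic 5 and non-diabetic 3. The outlined wounds lead FOS, JUNB, FOSL1 and ATF3 in both groups, and every blue point of FOSL2 lies above every red one.

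These 3 wounds were picked out after the values were seen, so their position is described and not tested. For FOS, the lowest of the 3 measured 91.0 FPKM and the highest of the other 8 wounds 55.0 FPKM. For JUNB these were 46.7 and 32.9 FPKM, for FOSL1 16.5 and 10.5 FPKM, and for ATF3 12.6 and 9.17 FPKM. In FOSB, FOSL2, JUN, JUND, EGR1 and EGR3 the 3 together did not stand above the rest. The highest wound of FOSB, JUN, FOSL2 and EGR3 was a non-diabetic one. For JUND the lowest of the 3 measured 43.6 FPKM and the highest of the other 8 wounds 52.2 FPKM, and for EGR1 24.6 and 26.5 FPKM. The depth of the 3 wounds was 31673257, 37723496 and 32961018 reads, inside the range of the other wounds. Their keratinocyte level, 6.37, 5.82 and 6.19, was also within that of the 6 remaining keratinocyte-rich wounds.

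In the diabetic group, the only group with enough wounds for a correlation, 4 of the 9 other members followed FOS from wound to wound. The share of all genes that followed FOS as closely is not given here, so the count is not shown to be particular to these members. Over the 7 diabetic wounds, log2 FOS levels followed JUNB with Pearson's r = 0.97, with an exact permutation p of 0.000595 and 0.00536 after adjustment over the 9 relations computed. The same test gave r = 0.93 for EGR1, 0.93 for ATF3 and 0.92 for FOSL2, each with an adjusted exact permutation p of 0.0161. Spearman's rho was 0.96 for JUNB (exact permutation p = 0.00278, adjusted 0.025), 0.93 for EGR1 (0.00675, adjusted 0.0304), and 0.86 for both ATF3 and FOSL2 (0.0238, adjusted 0.0536). FOS, JUNB and EGR1 thus ranked the diabetic wounds in nearly the same order.

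**Figure D3:**
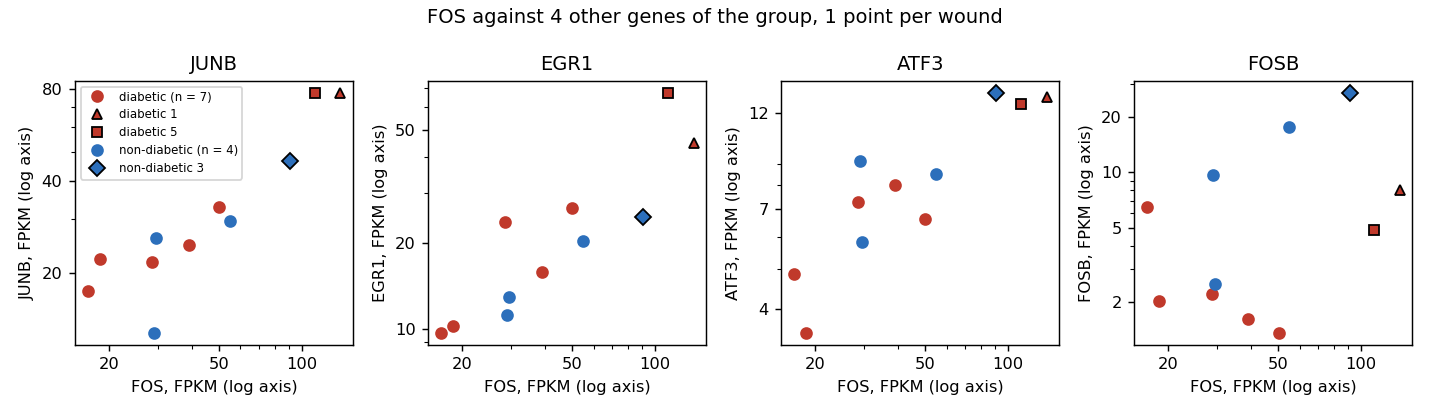
FOS against JUNB, EGR1, ATF3 and FOSB, in FPKM on log axes with 1 point per wound, red for diabetic and blue for non-diabetic wounds, and a separate vertical scale in each panel. JUNB, EGR1 and ATF3 climb with FOS across the 7 diabetic wounds (r = 0.97, 0.93 and 0.93), whereas FOSB does not (r = 0.37).

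Without diabetic 1 and 5, the wounds farthest from the median of FOS, r over the other 5 diabetic wounds was 0.89 for JUNB, 0.85 for EGR1, 0.77 for ATF3 and 0.69 for FOSL2, so the direction of these 4 did not rest on them. That of FOSL1, FOSB and EGR3 did. The r of FOSL1, 0.82 (exact permutation p = 0.0367, adjusted 0.0661), became -0.45, and its rho over all 7 was 0.54. The r of JUND was 0.53, that of JUN 0.43, that of FOSB 0.37 and that of EGR3 0.37, and none of these passed the exact permutation test (lowest unadjusted p = 0.224). Without diabetic 1 and 5 the r of FOSB turned to -0.77 and that of EGR3 to -0.40, while JUND and JUN stood at 0.31 and 0.05. All wounds in these relations share an animal and a scaling of the libraries.

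The levels of the members spanned more than an order of magnitude. Mean FPKM over the 11 wounds, a level per length of gene, was 63.7 for JUN, 55.6 for FOSL2, 55.3 for FOS, 47.0 for JUND and 35.4 for JUNB. It was 24.2 for EGR1, 9.17 for FOSL1, 8.44 for ATF3, 7.55 for FOSB and 2.05 for EGR3. Neighbours in the upper part of this order were not separated, with JUN above FOSL2 in 8 wounds, FOSL2 above FOS in 8 and FOS above JUND in 5 of 11. FOSL1 and ATF3 likewise changed places, FOSL1 being higher in 5. EGR1 was above FOSL1 in all 11 wounds, and FOSB was above EGR3 in 10. The order rests on the gene models, since the FOS model of 1143 bases holds coding sequence only, whereas that of JUNB is a single exon of 5350 bases around a coding sequence of 1044 bases.

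Within a wound, the proportions of the members varied as well. FOSB stood at 0.03 to 0.39 times FOS in diabetic wounds, with a median of 0.06, and at 0.33, 0.32, 0.29 and 0.08 times FOS in the non-diabetic wounds. JUN stood at 0.74 to 3.55 times JUNB with a median of 1.33 in diabetic wounds, and at 6.44, 3.54, 1.98 and 2.18 times JUNB in the non-diabetic ones. Both ratios overlapped between the groups, and since they were chosen after the values were seen they were not tested.

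The other genes of the pathway give the setting. Of 25 further AP-1, ATF, MAF and EGR family genes tested, none was called, 6 had an unadjusted p under 0.05 by limma (18.4% of all genes tested did), and the median log2 fold change was 0.06. The most abundant of them was ATF4, the main factor of the integrated stress response, at a mean of 119 FPKM (log2 fold change 0.20, adjusted p = 0.390 by limma). EGR2, the closest relative of EGR3, held 1.01 to 2.43 FPKM in diabetic and 1.12 to 2.88 FPKM in non-diabetic wounds. Among 33 kinases and factors upstream of these genes, such as SRF, the ELK factors and the ERK, JNK and p38 kinases, none was called either. Of these 33, 2 had an unadjusted p under 0.05 by limma, where 18.4% of all genes tested did, and the median was 0.06. SRF, the factor of the CArG box, measured 8.58 to 19.6 FPKM in diabetic wounds and 11.7 to 13.0 FPKM in non-diabetic wounds.

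Of 53 other immediate early genes tested none was called, 2 had an unadjusted p under 0.05, and 39 had a fold change above 0, with a median of 0.23. Among all 13956 genes tested, 7302 were above 0. Diabetic 1 and 5 took the 2 highest places among diabetic wounds for 36 of these 53 genes (67.9%), against 7.56% of all genes tested. They did so for 6 of the 10 members too, but the wounds were picked from the members' own values, so that count is a description only. Non-diabetic 3 was the highest of its group for 42 of the 53 (79.2%), against 25.6% of all genes. DUSP1, a phosphatase that ends MAP kinase signalling, reached 127 and 138 FPKM in diabetic 1 and 5 and 110 FPKM in non-diabetic 3, while the other 8 wounds held 31.5 to 59.5 FPKM. HBEGF and AREG, ligands of the EGF receptor made by wound-edge keratinocytes and named after their values were seen, followed the same wounds. HBEGF measured 66.2, 44.1 and 36.9 FPKM in the 3 wounds and 2.06 to 14.3 FPKM elsewhere, and AREG 85.8, 54.2 and 27.4 FPKM against 0.10 to 13.4 FPKM. CTGF and CEBPD, the 2 most abundant genes of the list, did not follow all 3 wounds. CTGF was highest in diabetic 4 at 854 FPKM, with 161 and 576 FPKM in diabetic 1 and 5. Its lowest non-diabetic value was that of non-diabetic 3, at 93.8 FPKM. CEBPD was highest in diabetic 5 and 1, at 236 and 179 FPKM, but held 159 FPKM in non-diabetic 3 against 176 FPKM in non-diabetic 4.

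Known targets of AP-1 and EGR factors showed the pattern in part. Of 25 tested, 1 was called lower and none higher, with a median log2 fold change of 0.03. The called gene was SPP1, the matrix and cytokine protein osteopontin, which held 18.3 to 52.0 FPKM in diabetic wounds and 71.1 to 180 FPKM in non-diabetic wounds, without overlap (log2 fold change -1.90, adjusted p = 0.016 by limma). FN1, fibronectin, was the most abundant target and did not overlap either, at 436 to 696 and 783 to 1041 FPKM, with a fold change of -0.59 and an adjusted p of 0.0567. Diabetic 1 and 5 took the top 2 places among diabetic wounds for 13 of the 25 targets (52%). Examples named after their values were seen are the neutrophil chemokine CXCL8, at 90.6 and 88.6 FPKM in these wounds against 1.51 to 4.79 FPKM in the other 5 diabetic wounds, and the collagenase MMP1, at 113 and 58.4 against 1.66 to 16.2 FPKM. Non-diabetic 3 led its group for 12 of the 25 targets (48%), against 25.6% of all genes. It was the highest of its group for CXCL8, at 18.6 FPKM, but not for MMP1, at 9.94 FPKM against 24.8 FPKM in non-diabetic 4.

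**Figure D4:**
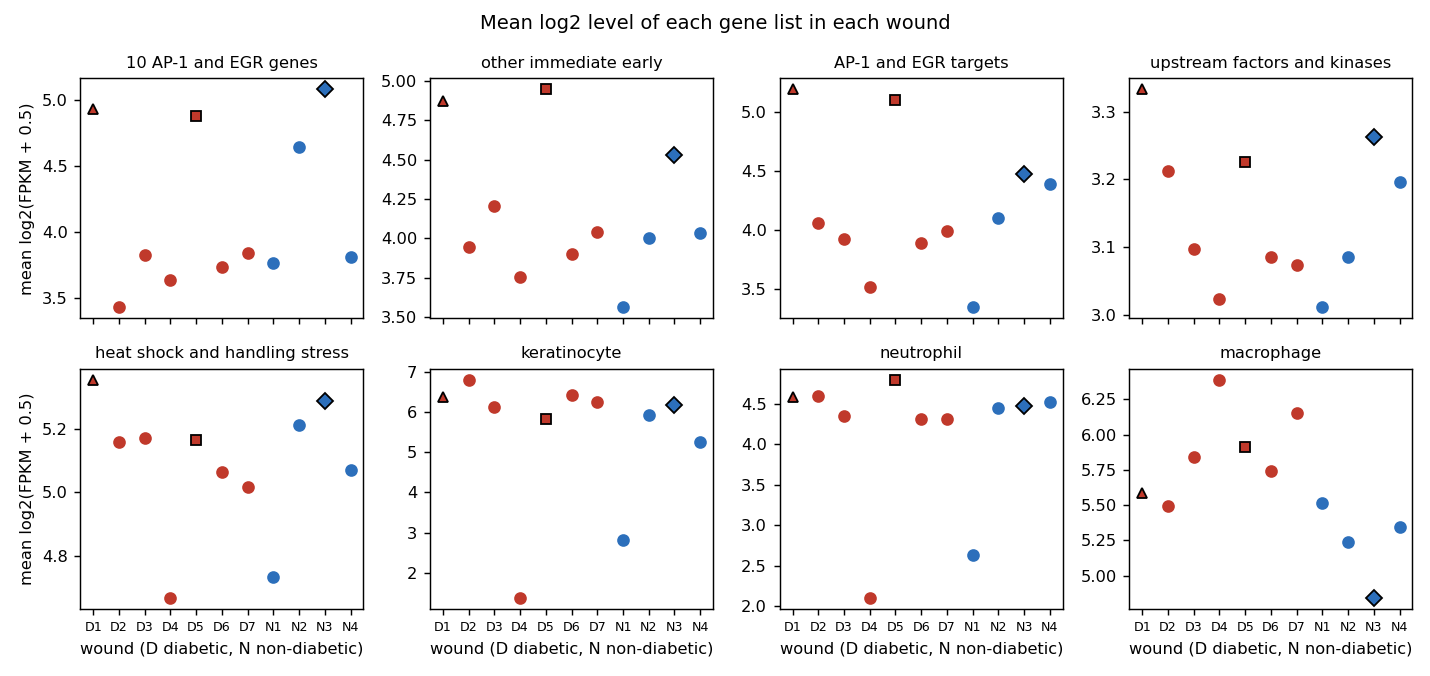
Mean log2(FPKM + 0.5) of 8 gene lists in each wound, D1 to D7 for the diabetic wounds in red and N1 to N4 for the non-diabetic wounds in blue, with outlined symbols for diabetic 1, diabetic 5 and non-diabetic 3 and a separate vertical scale in each panel. The 3 outlined wounds lead the 10 AP-1 and EGR genes (4.93, 4.88 and 5.08) and the other immediate early genes (4.88, 4.95 and 4.53), while diabetic 4 and non-diabetic 1 are low in keratinocyte and neutrophil genes.

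Heat shock genes, which rise when tissue is stressed or handled, were lowest in the keratinocyte-poor wounds. Their mean log2 level was 5.35 in diabetic 1, 5.16 in diabetic 5 and 5.29 in non-diabetic 3, against 4.67 to 5.21 in the other wounds, and none of 16 was called (1 with an unadjusted p under 0.05 by limma, median -0.05). Their part in the members' spread was not tested.

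Markers of the cells in a wound moved with some members. The keratinocyte list, with KRT5 as its most abundant gene at 29.2 to 2861 FPKM over the 11 wounds, had 15 of 17 genes higher in diabetic wounds and 1 called, the basal keratin KRT15. Its summed level was 72.1 to 7476 FPKM in diabetic and 365 to 3891 FPKM in non-diabetic wounds. Over all 13956 genes tested, 7302 were higher in diabetic wounds and 1.35% were called higher. FOSL1, FOSL2 and EGR3 had their lowest value of each group in diabetic 4 and non-diabetic 1, the keratinocyte-poor wounds, as did 14.9% of all genes tested and 45.3% of the other immediate early genes. Without these wounds none of the 10 members was called. With the keratinocyte level as a covariate the fold changes were -0.46 for FOSL2, -0.71 for JUN and -1.68 for FOSB. The neutrophil list had none of 8 genes called and a summed level of 241 to 10913 FPKM in diabetic and 414 to 12673 FPKM in non-diabetic wounds. The B and plasma cell list had 4 of 5 genes called higher, CD79A, CD79B, POU2AF1 and MZB1, and a summed level of 47.4 to 108 FPKM in diabetic against 15.3 to 79.3 FPKM in non-diabetic wounds. Fibroblast, endothelial, smooth muscle, T cell, mast cell, adipocyte, nerve and skeletal muscle lists together had 2 genes called lower, RGS5 and LEP, and 1 called higher, PLVAP. The part of these cells in the members' levels was not tested.

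The genes whose level was most like that of a member were sought over all 11 wounds among 13946 genes, as a description. Only the members were left out of this search, and the genes of the other lists were kept in it. Of the genes below, DUSP1, TRIB1 and CSRNP1 are on the list of other immediate early genes and LIF is on the list of targets. FOS was followed most closely by DUSP1 (r = 0.96), the mitochondrial carrier gene SLC25A25 (0.94) and LOC100525232 (0.93). EGR1 was followed by ERRFI1 (0.92), a feedback inhibitor of the EGF receptor, NECAP1 (0.91) and LIF (0.90), an interleukin-6 family cytokine. ATF3 was followed by the chemokine CXCL2 (0.92), the receptor kinase antagonist SPRY2 (0.90) and LOC102157763 (0.90). FOSL1 was followed by S100A3 (0.98), TRIB1 (0.97) and CSRNP1 (0.96). None of these 12 genes passed limma's test between the groups, the lowest adjusted p being 0.557, and all the points share the library scaling.

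The library names of the diabetic wounds carry a letter, L for 3 and R for 4, whose meaning was not given in the sources used here. No member passed the test between the letters, the lowest exact permutation p being 0.171 for JUND, where 0.0286 is the smallest that 3 against 4 wounds allow. Mean FOS was 69.0 ± 62.1 FPKM (SD, n = 3) for L and 49.1 ± 42.8 FPKM (SD, n = 4) for R, and diabetic 1 and 5 carry different letters.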

How the data were processed

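RNA of 11 day 10 wounds, 7 diabetic and 4 non-diabetic, was sequenced with 1 library per wound. According to the methods and the submitters' processing notes, reads were cleaned with fastp, mapped to Sscrofa11.1 with HISAT2 (2.2.1), assembled with StringTie (2.2.3) and counted with featureCounts (2.0.6). The authors deposited FPKM values for 30376 genes, and the formula behind them was not given in the sources used here. The library size they imply was 0.854 to 1.18 times the reads on genes and tracked median-of-ratios size factors, so a scaling between libraries is already in the values. Multiplied by gene length, 100% of the values in each library were whole multiples of a step to within 0.05 reads, which gave reads per gene and a depth of 28314785 to 40168372 per library. As that depth is known, 52 reads or more lay behind each value of a member. The deposited gene identifiers were looked up in the RefSeq annotation of Sscrofa11.1, where 27246 of 27263 found had the same start.

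The filter kept genes that reached 0.5 FPKM in 4 or more libraries. Groups were compared for log2(FPKM + 0.5) by limma (3.58.1, eBayes with trend) in R 4.3.3, with Benjamini-Hochberg adjustment over the 13956 genes tested. The pseudocount makes fold changes of low genes smaller than the ratio of their levels. Exact permutation tests covered single genes and correlations, all two-sided. Motifs were searched with Python 3.11.15 and pysam 0.24.0, and figures drawn with matplotlib 3.10.9. The fit was tested on simulated reads in which all genes had the same spread between libraries. That test does not show how the fit behaves at the wider spread of members such as FOS and FOSL1. No sample pair of a group was alike within sampling noise, and no sample was left out of the main comparison. The 25 alternatives changed the pseudocount, filter, scaling, variance model, weights, block, covariates and wounds.

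The 10 members and the 17 other gene lists were chosen with earlier results of these data known. The rule named all members, the called and the 2 most abundant genes of each list, and the 3 genes most like each of FOS, EGR1, ATF3 and FOSL1, and not all list genes it covers are printed. Outside it, EGR2 and SRF were named as a relative and an upstream factor of members, and AREG, BATF, CXCL8, HBEGF, HSF1, IL1B, IL6, MMP1, PTGS2 and RPS6KA1 after their values were seen. A symbol carried by more than 1 row was not used in a list. An item of the lists is not reported here.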

Additional observations from a re-analysis of the deposited data

How the results depend on the processing

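The count of AP-1 and EGR genes called was 0 in 24 of 25 alternatives, and it was 1 after quantile normalization, where FOSL2 reached a log2 fold change of -0.56 (limma adjusted p = 0.0196). The adjusted p of FOSL2 ranged from 0.0143 to 0.502 over the alternatives, and leaving out any single wound kept its fold change between -0.49 and -0.37. The signs of FOSB, FOSL2, JUN, EGR1 and ATF3 held in all 25.

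Members near 0 changed sign when a wound was left out. With single wounds left out, FOS ranged from -0.36 to 0.25 and was above 0 without diabetic 2, 4 or 6 (0.12, 0.01 and 0.14) and without non-diabetic 2 or 3 (0.01 and 0.25). FOSL1 ranged from -0.71 to 0.43 and was above 0 without diabetic 4 (0.04) and without non-diabetic 2 or 3 (0.06 and 0.43). EGR3 ranged from -0.76 to 0.019, above 0 without non-diabetic 2 or 3. JUND ranged from -0.21 to 0.0036, above 0 without non-diabetic 3, and JUNB from -0.0050 to 0.61, below 0 without non-diabetic 1. None of these sign changes came with an adjusted p under 0.8 by limma.

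The number of genes called in the other lists, 12, was 21 with library weights and 6 without the 2 keratinocyte-poor wounds, and it ranged from 5 to 13 with any single wound left out (7 without diabetic 5, and 6, 7, 7 and 5 without non-diabetic 1 to 4). Over all genes, 419 were called, against 16 with the replicate block and 822 with library weights, and 181 to 248 without single non-diabetic wounds. Relations with FOS that passed by Pearson's r numbered 4 in each of the 9 alternatives tried for them, while by Spearman's rho 2 passed. Members that passed the test between the library letters numbered 0 with either other pseudocount, and with a wound left out that test could not reach its threshold.

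The replicate numbers of the labels do not pair the wounds, which come from different animals, and same-numbered wounds had correlated deviations of -0.27, 0.22, 0.07 and -0.48. With the replicate number as a block, 0 of the 10 genes and 0 of the list genes were called, and FOSL2 stood at -0.44 (limma adjusted p = 0.502). Only 2 minipigs were sampled.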

Other observations

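A few genes close to the AP-1 and EGR genes did not overlap between the groups, as did 5.65% of all genes tested. They were found by looking through the lists after their values were seen. BATF, an AP-1 family factor of lymphocytes and other leukocytes, held 2.82 to 3.94 FPKM in diabetic wounds and 1.79 to 2.57 FPKM in non-diabetic wounds, with a log2 fold change of 0.42 (SE 0.12, adjusted p = 0.0813 by limma). RPS6KA1, a kinase of the ERK pathway that acts on FOS and other early factors, measured 8.17 to 11.005 against 6.27 to 7.89 FPKM, with a log2 fold change of 0.45 (SE 0.10, adjusted p = 0.034 by limma), under the size needed for a call. HSF1, the master factor of the heat shock response, measured 11.5 to 15.4 against 8.87 to 11.02 FPKM, with a log2 fold change of 0.32 (SE 0.10, adjusted p = 0.11 by limma).

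IL6, IL1B and PTGS2, inflammatory genes that AP-1 can switch on, were highest among diabetic wounds in the same 2 as FOS. IL6, a cytokine of early inflammation, measured 67.5 and 61.8 FPKM in diabetic 1 and 5 and 3.25 to 12.5 FPKM in the other 5 diabetic wounds. It measured 49.3 FPKM in non-diabetic 3 and 7.03 to 20.2 FPKM in the other 3 non-diabetic wounds. IL1B measured 12.2 and 17.2 FPKM in diabetic 1 and 5 and 0.32 to 0.95 FPKM in the other 5. PTGS2, the inducible prostaglandin synthase, measured 45.3 and 31.5 FPKM in these 2 wounds and 0.39 to 8.37 FPKM in the other 5 diabetic wounds. In non-diabetic 3, where FOS was 91.0 FPKM, PTGS2 measured 3.51 FPKM, the highest of its group. The other 3 non-diabetic wounds held 1.43 to 3.08 FPKM of PTGS2. These 3 genes were named after their values were seen, and no difference between the wounds was tested.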
